A study of Oryza sativa Japonica Group with 4 samples.

Results

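The ammonium transporters of the AMT family were examined in rice roots after a short glutamate treatment. The members were 5 genes chosen by name, AMT1-1, AMT1-2, AMT1-3, AMT2-1 and AMT2-3. A probe set is a group of short probes that together measure 1 transcript. Probe sets were taken where the array annotation gives a single gene of one of these names, which left 5 probe sets for 4 of the 5 genes, out of 17905 genes so measured on the array. AMT1-1 (LOC4336365, chromosome 4) had 2 probe sets, and AMT1-2 (LOC4330008, chromosome 2), AMT2-1 (LOC4339064, chromosome 5) and AMT2-3 (LOC4327433, chromosome 1) had 1 each. No probe set was assigned to AMT1-3 (LOC4330007), so this gene was not analysed here. It is the next gene to AMT1-2 on chromosome 2 in the RefSeq gene table, which lists the names AMT1-2 and AMT1-3 for both. The entry with the further name OsAMT1;2 was taken as AMT1-2.

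Seedlings of the japonica cultivar TNG67 were raised in hydroponics with no nitrogen source until 17 days old, so that all groups were nitrogen-starved. The +Glu group was then given 2.5 mM glutamate during 30 min, and the −N group was the untreated control without nitrogen. Whether the −N seedlings for the arrays were also moved to fresh solution is not stated. RNA from 2 biological replicates of roots per group was measured on the rice GeneChip of Affymetrix, 4 arrays in all. In RNA from roots, a change in every cell and a change in the share of cells that express a gene cannot be told apart.

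Ammonium transporters are membrane proteins that carry ammonium into plant cells. The AMT1 proteins are the high-affinity carriers of the root surface, and the AMT2 proteins form a separate branch that is closer to the ammonium permeases of fungi. In rice, AMT1-1 is known to be expressed in both roots and shoots, AMT1-2 as a root gene that is induced by ammonium, and AMT1-3 as a root gene that is induced when nitrogen is scarce. Ammonium that enters the root is built into glutamine by glutamine synthetase and from there into glutamate.

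All values below are deposited intensities, which are not log-transformed. The array medians were 19.3 and 23.9 in +Glu and 20.1 and 23.9 in −N. Root markers were present, with the silicon channel gene LSI1 between 7085 and 9275 on the 4 arrays. Of 10 root marker names 8 were measured, and their lowest intensity on any array was 18.5 and their summed intensity 9994 and 11404 in +Glu against 8896 and 13125 in −N. Of 11 names of green tissue 3 were measured, and these were not near the lowest intensity of the table (3.15). The chlorophyll-binding protein gene CAB2R was between 8748 and 10778, and the summed green markers were at 12234 and 10802 in +Glu and 9439 and 13247 in −N. The −N replicates differed more than the +Glu replicates. Both −N arrays were at least 2-fold apart in 1728 of the 17905 genes (9.65%), and both +Glu arrays in 279 (1.56%).

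After 30 min of glutamate no AMT probe set passed the adjusted threshold, and AMT2-3 was at 1.98-fold, the largest change of the 5 in the deposited intensities. With an offset of 16 for dim signals it was at 0.52 on the log2 scale, against −0.63 for AMT1-2, and without −N replicate 1 it was at 1.03, against −1.34 for AMT1-2, so that its rank depended on both. AMT2-1 was at 1.25-fold, with both +Glu arrays above both −N arrays. AMT1-1 and AMT1-2 were at 0.887-fold and 0.635-fold, and in both genes the −N replicates were over 2-fold apart. The changes were tested by limma on the log2 scale across all 57258 probe sets. The number of arrays limits these tests. The limma p-values rest on the spread between 2 biological replicates, moderated toward the spread over all probe sets. An adjusted p under 0.05 (Benjamini-Hochberg) was reached by 0 of the 5 AMT probe sets, as by 0% of all probe sets in either direction. An unadjusted p under 0.05 was reached by 1 of the 5, AMT2-3, which was higher in +Glu. Over the whole array 2.21% of probe sets were higher and 0.353% lower at that threshold. At least 2-fold with an unadjusted p under 0.05, the thresholds given in the study's methods, was reached by 0 of the 5 AMT probe sets, against 0.962% of all probe sets in the higher and 0.0437% in the lower direction. The groups were separate, with +Glu higher, in 2 of the 5, AMT2-1 and AMT2-3, and separate with +Glu lower in 0 of the 5. Over all probe sets these shares were 10.3% and 12.5%.

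**Figure D1:**
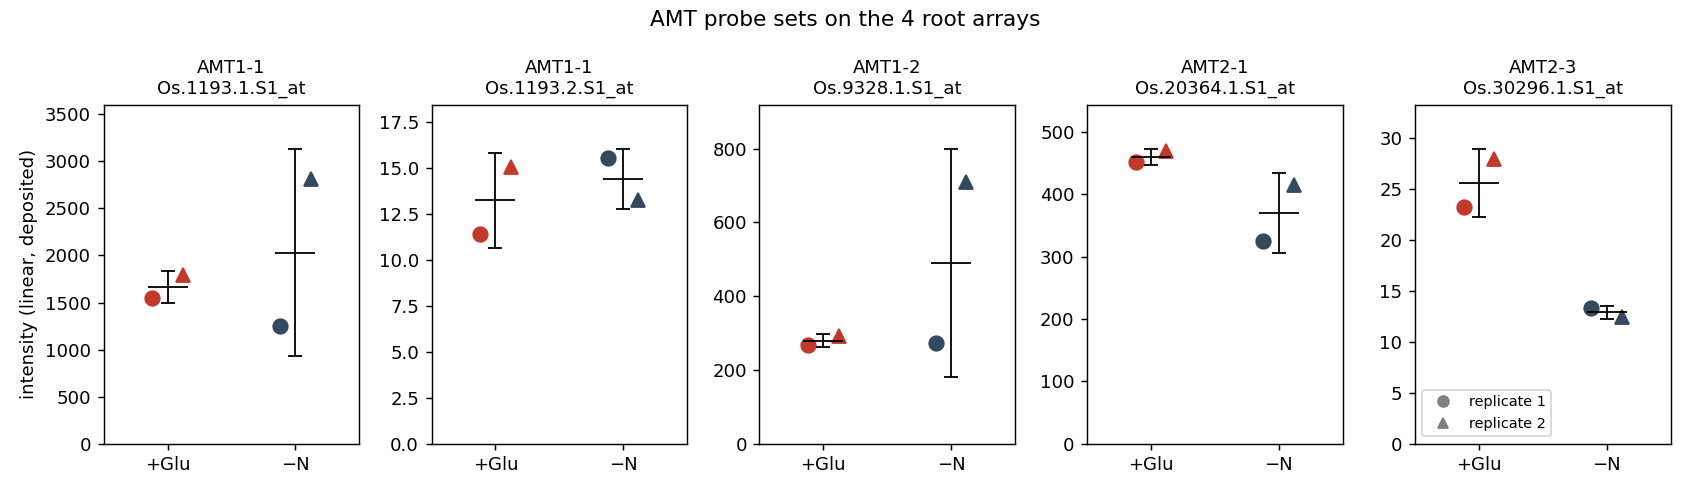
Deposited intensity (linear axis from 0, its own range in each panel) of the 5 AMT probe sets in +Glu (red, left) and −N (dark, right). Circles are replicate 1, triangles replicate 2, and the bar and whiskers give the mean ± SD of 2 arrays. In AMT2-3 the groups are separate and the replicates close, while in AMT1-1 (Os.1193.1.S1_at) and AMT1-2 the −N replicate 2 array stands above the other 3.

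AMT2-3 belongs to the AMT2 branch. Its probe set (Os.30296.1.S1_at) had intensities of 23.2 and 27.9 in +Glu, against 13.3 and 12.4 in −N. Both +Glu arrays lay above both −N arrays, and the replicates of each group were close, 1.20-fold apart in +Glu and 1.07-fold apart in −N. The mean was 25.5 ± 3.34 in +Glu and 12.9 ± 0.623 in −N (SD, n = 2 each). The log2 change was 0.99 (SE 0.23, 95% interval 0.42 to 1.55), with an unadjusted p of 0.00561 and an adjusted p of 1 from limma. A change as large in either direction was seen in 1.39% of all probe sets. The signal was weak. In −N the probe set was dimmer than the median probe set of its array (percentiles 40.6 and 34.9), and in +Glu just above it (percentiles 53.1 and 52.8). No detection calls come with the intensities, and the distance of the −N values from background is unknown, and the fold change depends on the background treatment in the deposited values. With an offset of 16 added to each intensity before log2, the log2 change was 0.52, against 0.99 without it.

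AMT2-1, another member of the AMT2 branch, known from both roots and shoots, had intensities of 450.8 and 468.8 in +Glu, against 324.3 and 414.8 in −N. The groups did not overlap, but the gap between them was smaller than the gap within −N. The mean was 459.8 ± 12.7 in +Glu and 369.6 ± 64.0 in −N (SD, n = 2 each). The log2 change was 0.33 (SE 0.23, 95% interval −0.26 to 0.91), with an unadjusted p of 0.218 and an adjusted p of 1 from limma. The interval runs from 0.835-fold to 1.88-fold, and includes no difference.

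AMT1-1, a high-affinity ammonium transporter, was read by a bright probe set (Os.1193.1.S1_at) with intensities of 1546 and 1790 in +Glu, against 1252 and 2810 in −N. Both +Glu arrays lay between both −N arrays. The −N replicates were 2.24-fold apart, a gap reached by 4.38% of all probe sets, and the +Glu replicates were 1.16-fold apart. The mean was 1668 ± 172 in +Glu and 2031 ± 1102 in −N (SD, n = 2 each). The log2 change was −0.17 (SE 0.41, 95% interval −1.20 to 0.85), and the unadjusted p of 0.689 became an adjusted p of 1 in limma. Its direction depended on 1 array. Without −N replicate 2 the log2 change was 0.41, and without −N replicate 1 it was −0.76 (unadjusted p = 0.0408, adjusted p = 0.895 from limma). The second AMT1-1 probe set (Os.1193.2.S1_at) was dim, with 11.4 and 15.1 in +Glu, against 15.5 and 13.2 in −N. Its groups overlapped, its log2 change was −0.13 (95% interval −0.76 to 0.49), and its −N replicates were only 1.18-fold apart. Without +Glu replicate 1 its log2 change was 0.07, so its direction too depended on 1 array.

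AMT1-2, the root ammonium transporter known for its induction by ammonium, had intensities of 266.8 and 292.1 in +Glu, against 272.4 and 708.6 in −N. Here 3 of the 4 arrays were close to each other and −N replicate 2 stood apart. The −N replicates were 2.60-fold apart, a gap reached by 2.62% of all probe sets, while the +Glu replicates were 1.09-fold apart. The mean was 279.4 ± 17.9 in +Glu and 490.5 ± 308 in −N (SD, n = 2 each). The log2 change was −0.65 (SE 0.46, 95% interval −1.81 to 0.50), the lowest of the 5, and the unadjusted p of 0.212 became an adjusted p of 1 in limma. It rested on −N replicate 2. Without that array the log2 change was 0.04 (1.02-fold), and without −N replicate 1 it was −1.34 (0.394-fold, unadjusted p = 0.00087, adjusted p = 0.0765 from limma).

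**Figure D2:**
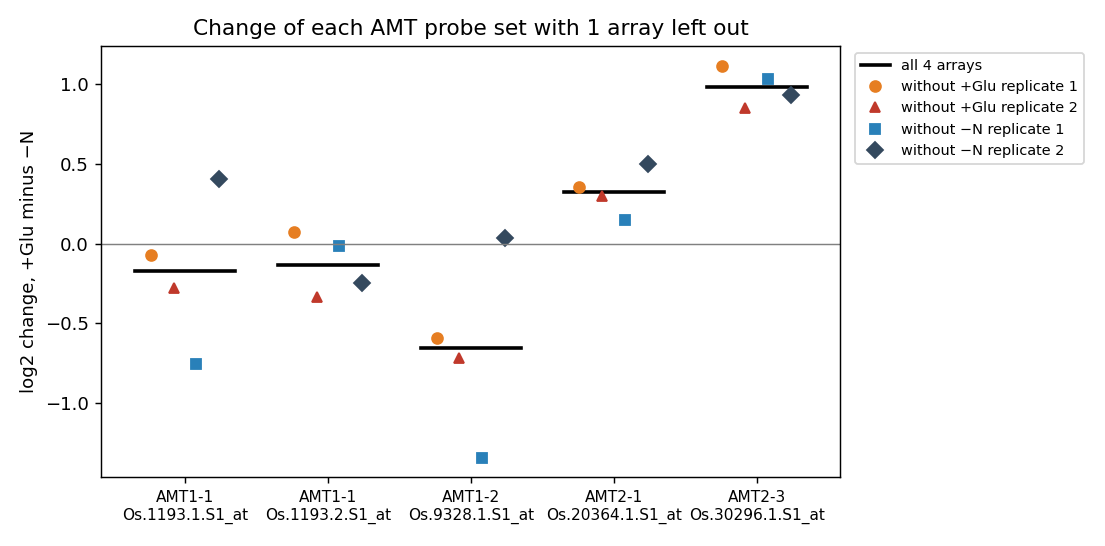
Log2 change (+Glu minus −N) of each AMT probe set over all 4 arrays (black line) and with 1 array left out (symbols). AMT2-3 stays between 0.85 and 1.12 and AMT2-1 between 0.15 and 0.50, while AMT1-1 (Os.1193.1.S1_at) and AMT1-2 cross 0 without −N replicate 2, and the second AMT1-1 probe set without +Glu replicate 1.

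Most marker genes were also highest on the same array. Where AMT1-1 and AMT1-2 were highest in −N replicate 2, the Rubisco small subunit gene RBCS was at 665.0 and 820.9 in +Glu and at 309.7 and 1193 in −N, and the Rubisco activase gene RCA at 927.9 and 875.4 in +Glu and at 381.3 and 1275 in −N. −N replicate 2 was the highest array for 3 of the 3 green markers and 7 of the 8 root markers, against 44.3% of all genes. In CAB2R and LSI1 it was little above the next array, at 10778 against 10641 and at 9275 against 8863. The root marker PT8 was at 447.7 and 423.9 in +Glu and at 259.2 and 401.5 in −N. The metal transporter gene NRAMP5 was at 258.9 and 363.5 in +Glu and at 181.5 and 580.2 in −N. The part of such differences between the −N samples in the AMT1 values was not tested. RBCS and RCA were read by probe sets ending in _x_at, and whether these also read related transcripts was not tested.

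The changes of the 4 AMT genes were then set against each other within each array, using the ratio of 2 genes on 1 array, relative to its mean in −N. Such a ratio describes how the changes of 2 genes differed on these arrays and says nothing of which is more abundant. In the deposited intensities the ratios of all 6 pairs were separate between the groups. After quantile normalization AMT1-1 over AMT2-1 overlapped, and with the offset of 16 AMT2-1 over AMT2-3 did (exact permutation p = 0.667 each). The widest difference was between AMT1-2 and AMT2-3, whose log2 ratio minus its −N mean was −1.57 and −1.71 in the +Glu arrays, against −0.74 and 0.74 in the −N arrays. AMT1-2 over AMT2-3 thus changed by −1.64 on the log2 scale, AMT1-1 over AMT2-3 by −1.16, AMT1-2 over AMT2-1 by −0.98 and AMT2-1 over AMT2-3 by −0.66. The differences from the dim AMT2-3 depended on the offset. With 16 added they were −1.15 for AMT1-2, −0.70 for AMT1-1 and −0.21 for AMT2-1. AMT1-1 over AMT2-1 changed by −0.50, and there the nearest +Glu and −N arrays were at −0.42 and −0.41. AMT1-1 and AMT1-2 were both highest in −N replicate 2. AMT1-1 over AMT1-2 minus its −N mean was 0.44 and 0.52 in +Glu, against 0.11 and −0.11 in −N, a difference of 0.48. With 2 arrays per group the smallest two-sided p of an exact permutation test is 0.333, which all 6 pairs had (0.333 after adjustment over the 6), so that none could pass 0.05 and no pair is shown to differ. The 6 pairs are built from 4 genes and are not independent. Over all other genes, the ratio to AMT2-3 was separate between the groups in 91.9%, that to AMT1-2 in 57.2%, that to AMT2-1 in 56.5% and that to AMT1-1 in 19.1%. Separate ratios were thus common for AMT2-3, AMT1-2 and AMT2-1 with any gene, and least common for AMT1-1.

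**Figure D3:**
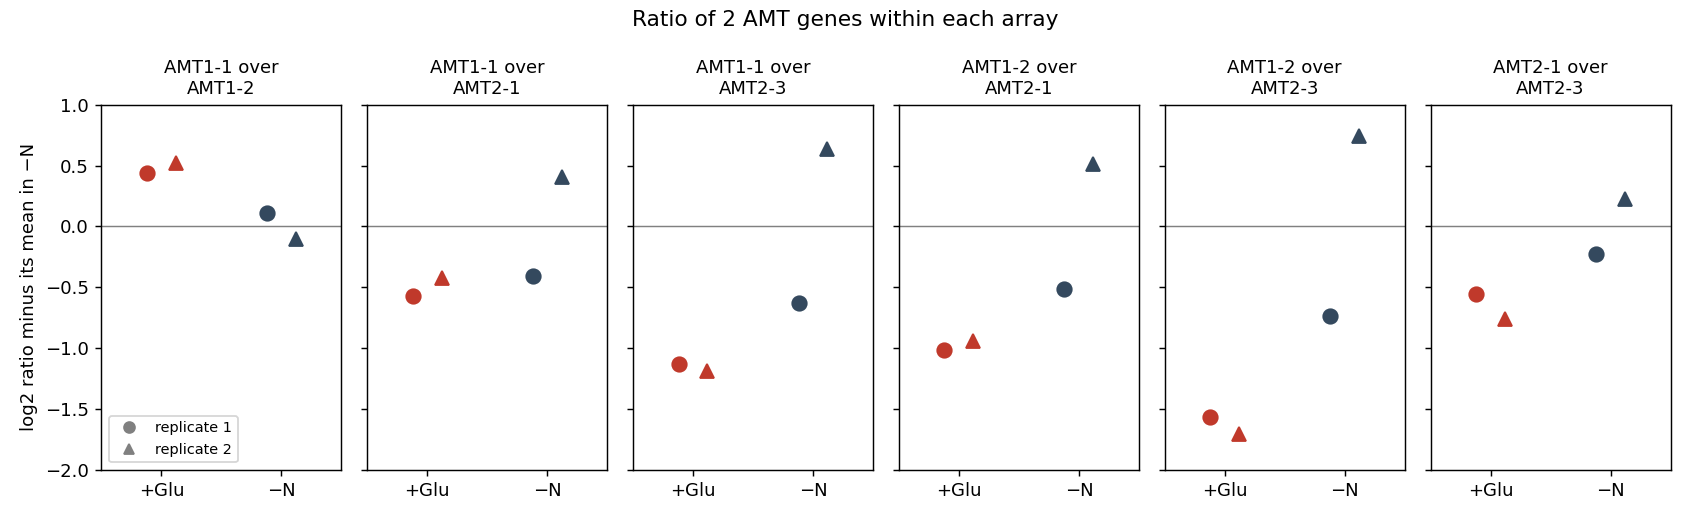
Log2 ratio of 2 AMT genes on the same array minus its mean in −N, for the 6 pairs, in +Glu (red, left) and −N (dark, right). Circles are replicate 1 and triangles replicate 2. The +Glu arrays lie together in each panel and apart from both −N arrays, by 0.83 log2 units in AMT1-2 over AMT2-3 and by only 0.02 in AMT1-1 over AMT2-1.

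The 4 other ammonium transporter genes that were found by name and measured had no change past a threshold. AMT2-2, which lies near AMT2-3 on chromosome 1 with 2 genes between them in the gene table, was at 18.5 and 40.6 in +Glu and at 22.1 and 46.2 in −N (0.857-fold). Its groups overlapped, unlike those of AMT2-3. AMT3-3 was at 90.6 and 89.3 in +Glu and at 95.1 and 189.5 in −N (0.670-fold, unadjusted p = 0.167 from limma), with both +Glu arrays lower and −N replicate 2 again apart. AMT3-2 was at 597.5 and 836.8 in +Glu and at 459.7 and 1202 in −N (0.951-fold), and AMT3-1 at 25.3 and 23.7 in +Glu and at 31.8 and 21.5 in −N (0.935-fold). Both were read by probe sets ending in _x_at, and whether these also read related transcripts was not tested. AMT3-1 has 2 probe sets, of which the brighter is given. The log2 change was below 0 in all 4 of these genes, as in 44.8% of all genes, and that of AMT3-2 (−0.07) and AMT3-1 (−0.10) was close to 0. Of the 4, 3 were highest in −N replicate 2.

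These 4 genes belong to a list of 18 measured genes of ammonium and nitrate uptake, reduction and assimilation. Of the 18, 1 had an unadjusted p under 0.05 and was higher and 0 were lower, against 3.86% higher and 0.38% lower over all genes, and 0 passed the adjusted threshold. This gene was GDH2, a glutamate dehydrogenase, at 2.72-fold. GDH2 has 3 probe sets, of which the brightest is given. The groups were separate, with +Glu higher, in 3 of the 18, GDH2, the glutamine synthetase gene GLN1-3 (1.36-fold) and NAR2.2 (1.62-fold), a partner protein of nitrate transporters, and separate with +Glu lower in 1, AMT3-3. Over all genes the shares were 14.9% and 10.1%. The median log2 change of the 18 was −0.07, against 0.03 over all genes. The lowest fold change was that of the nitrate transporter gene NRT2.3 (0.457-fold, unadjusted p = 0.118 from limma), with −N arrays 3.60-fold apart. Its probe set ends in _x_at, and whether it also reads related transcripts was not tested. GDH2 is among the genes the study listed from these arrays, so its direction here is not independent evidence.

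The gap between the −N arrays was shared by many of these genes. Both −N arrays were at least 2-fold apart in 2 of the 4 AMT genes and in 8 of the 18 listed genes, against 9.65% of all genes, and −N replicate 2 was the highest array in 12 of the 18, against 44.3% of all genes. Between the +Glu arrays a gap of this size was seen in 0 of the 4 AMT genes and 1 of the 18.

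**Figure D4:**
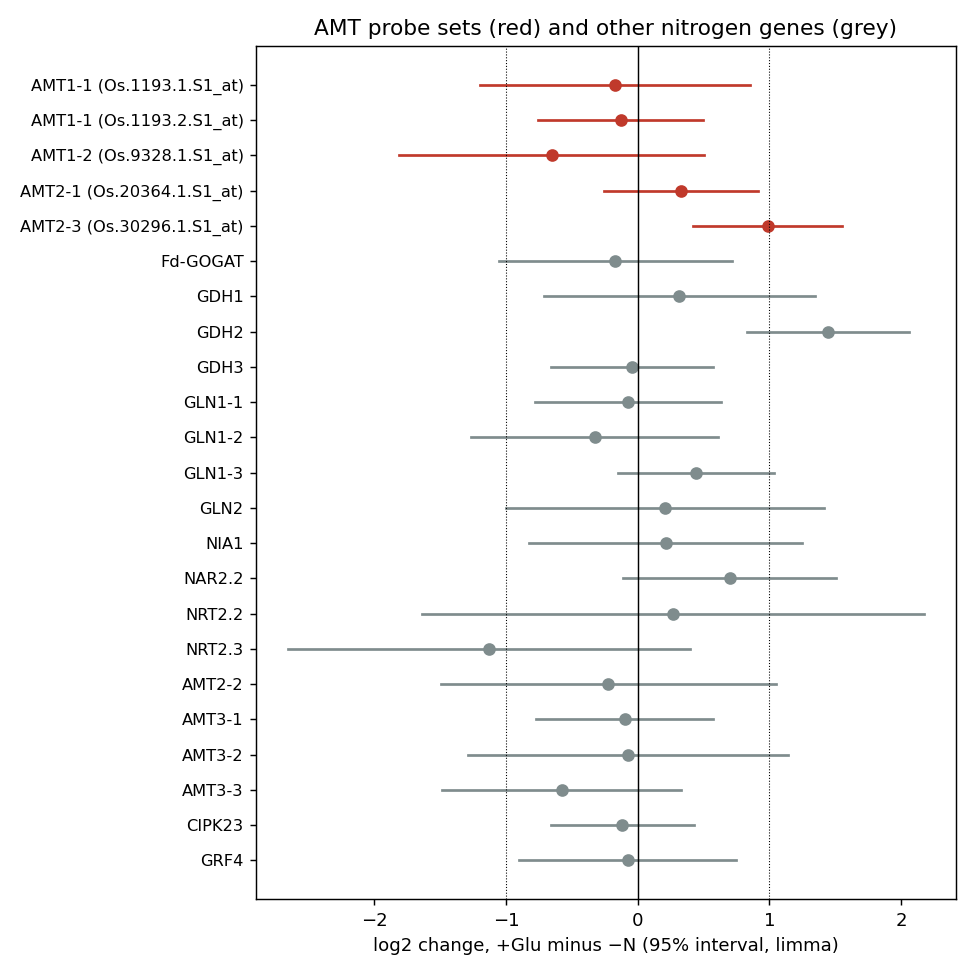
Log2 change (+Glu minus −N) with its 95% interval from limma for the 5 AMT probe sets (red) and the 18 other nitrogen genes (grey). Dotted lines mark a 2-fold difference. The interval of AMT2-3 (0.42 to 1.55) lies above 0, and those of the other 4 AMT probe sets include 0.

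To describe which genes shared the pattern of each AMT gene over the 4 arrays, the log2 values of each gene were centred on their mean and the distance to each of 1989 other named genes was taken. For AMT2-3 the closest were the protein phosphatase 2C gene OsPP2C78 (distance 0.056, 1.96-fold), OsOPR1 of the oxophytodienoate reductase family (0.060, 1.91-fold) and the calmodulin-like gene CML24 (0.088, 1.88-fold). OsPP2C78 was at 210.2 and 245.5 in +Glu and at 117.7 and 114.6 in −N. These genes were picked for their likeness on the same arrays, so their fold changes and separate groups follow from the selection. For AMT2-1 they were BAT1 (0.024), OsJAZ3, a repressor of jasmonate signaling (0.044), and OsSGS3 (0.046). For AMT1-1 they were the iron transporter gene OsVIT1 (0.042), OsDjC27 (0.067) and OsGLO3 (0.097). AMT1-2 had no neighbour as close, with the tubulin gene OsTUB8 at 0.223, the copper transporter gene OsCOPT2 at 0.236 and the 4-coumarate ligase gene Os4CL1 at 0.247. Within a distance of 0.25 lay 202 of the 1989 genes for AMT2-1, 45 for AMT1-1, 14 for AMT2-3 and 3 for AMT1-2. With 4 arrays such likeness is a description of these arrays only.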

How the data were processed

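RNA from the roots of +Glu and −N seedlings was measured on 4 arrays, 2 biological replicates per group, as the sample titles give them. For each array the authors deposited a linear intensity of every probe set. GCOS and RMA are named in the submitters' processing notes. How each was used is not given in the sources used here, with no version or background setting, and a different background treatment would change dim probe sets most. For arrays there is no read depth, and the number of arrays limits the precision.

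The log2 of each intensity was taken with no offset or filter. The 123 control probe sets of the manufacturer were removed, and the remaining 57258 were fitted with limma 3.58.1 in R 4.3.3 (lmFit and eBayes, +Glu minus −N, no block, two-sided), with Benjamini-Hochberg adjustment. The array annotation assigned 1 gene to 22436 probe sets, several to 95 and none to 34727. The probe set of highest mean log2 intensity stood for a gene with several, and names came from the RefSeq gene table of assembly ASM3414082v1, which held all 17905 genes. Its coordinates were used only for the order of neighbouring AMT genes on their chromosomes. Pairs of AMT genes were compared by an exact permutation test (scipy 1.17.1). The fit was tested on simulated data with added changes larger than those of the AMT probe sets. How often it finds changes of their size was not tested.

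The genes named are all AMT probe sets, the genes of a fixed list of ammonium and nitrate genes (46 names tried, 20 genes found, 18 measured), the 3 named genes closest to each AMT gene (mean log2 of at least 5) and marker genes. The members and lists were chosen with earlier results of these data known. The alternatives were the replicate block, leaving out each array, quantile normalization, median centring, 2 filters on dim probe sets, an offset of 16, eBayes with trend, Student's test with equal variances per probe set, leaving out probe sets ending in _s_at or _x_at, and the mean over all probe sets of a gene.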

Additional observations from a re-analysis of the deposited data

How the results depend on the processing

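In 36 of 36 results from alternatives that kept all 4 arrays, the log2 change of the AMT probe sets kept its direction and its side of the adjusted threshold, from 0.52 to 1.02 for AMT2-3. The replicate block, the filters, eBayes with trend and Student's test leave the log2 change itself as it was. Only quantile normalization, median centring and the offset could change its direction. With these and with the block 0% of all genes passed the adjusted threshold, so keeping that side is not particular to AMT. An unadjusted p under 0.05 was reached by 0 AMT probe sets with either filter on dim probe sets, which leaves AMT2-3 out, and by 0 to 3 with 1 array left out, where 0.983% to 6.05% of all probe sets did. With all 4 arrays, the 2-fold thresholds were passed by 1, AMT2-3, after quantile normalization (0.856% of all probe sets) or median centring (1.11%). Groups that do not overlap were counted in 3 of the 5 after quantile normalization, against 27.3% of all probe sets in either direction. The added probe set was that of AMT1-2, with both +Glu arrays lower (log2 change −0.74). With 1 array left out there were 2 to 4 of the 5, but 1 array against 2 is separate far more often, in 55.1% to 63.7% of all probe sets. In 2 of the 6 pairs of AMT genes the separation was lost, for AMT1-1 and AMT2-1 by quantile normalization and for AMT2-1 and AMT2-3 by the offset of 16. With 1 array left out the log2 change ranged from 0.85 to 1.12 for AMT2-3, 0.15 to 0.50 for AMT2-1, −0.76 to 0.41 for AMT1-1, −0.33 to 0.071 for its second probe set and −1.34 to 0.035 for AMT1-2. In these fits the group with 1 array took its spread from the other group. Without +Glu replicate 2 the unadjusted p of AMT2-3 was 0.0527 from limma.

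The sources do not say that a replicate number marks a shared culture or day, and with 2 pairs the numbers were not taken as a pairing. Deviations of same-numbered arrays from their group means correlated at 0.546 over probe sets. With the replicate block the unadjusted p of AMT2-3 was 0.00229 and the adjusted p 0.347 from limma, 0 AMT probe sets passed the adjusted threshold, and 3 of the 18 listed genes had an unadjusted p under 0.05, as did 10.1% of all genes. That count was 2 after median centring (5.88% of all genes). With 1 array left out it was 1 to 6 (1.45% to 9.15% of all genes), with 6 when either −N array was left out, and 0 to 1 passed after adjustment (0% to 1.55% of all genes). The median of the 18 ranged from −0.36 to 0.29 with 1 array left out. The cause of these shifts was not tested.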

Other observations

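The array carries 2 further probe sets with the cluster number of the AMT2-3 probe set, Os.30296.2.S1_at and Os.30296.2.S1_x_at. The array annotation gives them no gene, so they were not counted as AMT2-3, and they were singled out after their values were seen. The probe set Os.30296.2.S1_at was at 57.7 and 78.0 in +Glu and at 38.2 and 32.6 in −N, 1.90-fold (95% interval 1.22-fold to 2.96-fold) with an unadjusted p of 0.0125 and an adjusted p of 1 in the limma fit. Os.30296.2.S1_x_at was at 71.7 and 68.1 in +Glu and at 48.2 and 46.0 in −N, 1.48-fold (95% interval 1.03-fold to 2.14-fold) with an unadjusted p of 0.0383 and an adjusted p of 1 in the limma fit. In both, the +Glu arrays lay above the −N arrays, as in 10.3% of all probe sets. An unadjusted p under 0.05 with +Glu higher was reached by 2.21% of all probe sets. The names of the 2 share Os.30296.2.S1, and whether they read separate transcripts was not tested. Whether the one ending in _x_at also reads related transcripts was not tested either.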
